A study of Arabidopsis thaliana with 12 samples.

Results

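PMR4, PEN1, SYP122, SNAP33 and PEN3 are 5 Arabidopsis genes for callose deposition and for secretion to the cell surface during defence. They were chosen by name, and all 5 were among the 23396 genes listed. Messenger RNA was sequenced from whole wild-type Col-0 seedlings in 4 groups of 3 samples. HF seedlings were exposed to hypoxia together with flg22, a peptide of bacterial flagellin that immune receptors recognise, at 100 nM. NF seedlings received the same flg22 at ambient oxygen (normoxia), HM seedlings were given hypoxia with water as the mock treatment, and NM seedlings had the mock treatment in normoxia. Hypoxia was applied in anaerojars, every treatment lasted 1 h, seedlings were 10 days old, and each sample pooled 5 seedlings grown in continuous light. Each group is therefore a mixture of all seedling tissues at a single time point, and in such bulk samples fewer cells of a type and less RNA per cell cannot be told apart.

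Where a microbe attacks, a plant cell builds up its wall from inside. PMR4 (also GSL5, listed as GSL05) is the callose synthase that makes the glucan of these wall deposits. PEN1 (SYP121) and its close relative SYP122 are syntaxins of the plasma membrane, and with SNAP33 and a vesicle protein of the VAMP72 family they form the SNARE complex that fuses secretory vesicles with that membrane. PEN3 (ABCG36) is an ABC transporter of the plasma membrane that exports defence metabolites, and it gathers with PEN1 at sites of attack. All these roles were established in Arabidopsis.

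The genes lie at 5 separate places in the genome. In RefSeq's TAIR10.1 annotation, PMR4 (AT4G03550) spans chr4:1573266-1579820 on the plus strand, PEN1 (AT3G11820) chr3:3729305-3731251 on the minus strand, SYP122 (AT3G52400) chr3:19425632-19427230 on the minus strand, SNAP33 (AT5G61210) chr5:24623248-24625631 on the plus strand and PEN3 (AT1G59870) chr1:22034423-22040126 on the plus strand. PEN1 and SYP122 encode proteins of 346 and 341 residues, of which 66.2% were identical in a global alignment. PEN3 has a closer relative, ABCG35, at 85.7% identity. PMR4 matched GSL1 best among the callose synthases, at 65.8%, and SNAP33 matched SNAP30 best, at 64.1%. SNAP33 is overlapped by genes on the other strand, and whether counting used the strand is not given in the sources used here. AT5G61220, one of these genes, had 140 to 161 counts in HF, 96 to 213 in NF, 155 to 211 in HM and 137 to 225 in NM, far below SNAP33 itself.

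The 250 bases before the transcript start are shown for the 4 genes that rose with flg22, so that the upstream sequence can be read beside their values. Capitals mark the W-box core, TTGACC or TTGACT on either strand, the element that WRKY transcription factors bind.
SYP122, chr3:19427231-19427480, minus strand: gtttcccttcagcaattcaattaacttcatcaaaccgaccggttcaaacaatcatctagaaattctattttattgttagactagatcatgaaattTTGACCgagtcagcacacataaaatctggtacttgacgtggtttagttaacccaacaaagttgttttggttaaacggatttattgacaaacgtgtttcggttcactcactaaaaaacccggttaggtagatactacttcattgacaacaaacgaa
PEN1, chr3:3731252-3731501, minus strand: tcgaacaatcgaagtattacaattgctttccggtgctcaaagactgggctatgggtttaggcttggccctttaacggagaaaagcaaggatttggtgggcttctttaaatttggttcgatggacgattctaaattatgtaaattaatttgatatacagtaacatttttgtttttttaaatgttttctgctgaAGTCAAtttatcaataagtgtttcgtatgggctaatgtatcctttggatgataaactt
PEN3, chr1:22034173-22034422, plus strand: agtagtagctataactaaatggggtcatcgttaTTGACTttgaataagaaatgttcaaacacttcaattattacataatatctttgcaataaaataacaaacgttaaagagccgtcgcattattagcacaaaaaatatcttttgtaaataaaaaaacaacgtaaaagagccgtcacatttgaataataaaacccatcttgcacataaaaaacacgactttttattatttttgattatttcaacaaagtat
SNAP33, chr5:24622998-24623247, plus strand: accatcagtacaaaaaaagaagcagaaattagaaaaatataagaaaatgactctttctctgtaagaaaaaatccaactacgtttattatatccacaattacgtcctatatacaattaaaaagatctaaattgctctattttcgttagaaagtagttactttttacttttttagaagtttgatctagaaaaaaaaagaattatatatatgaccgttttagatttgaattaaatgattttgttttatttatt
SYP122 held 1 TTGACC that ended 150 bases before its start, PEN3 held 1 TTGACT that ended 212 bases before its start, and PEN1 held 1 TTGACT on the opposite strand that ended 53 bases before its start. SNAP33 and PMR4 held neither core in this window. Either core stood in 28.4% of 27443 Arabidopsis promoters of this length, so 3 of 5 genes is a description of the letters only. The G-box CACGTG, present in 6.49% of promoters, and the GCC-box GCCGCC, present in 1.87%, were found in none of the 5 windows.

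The 12 libraries held between 21307650 and 21554050 counts each, so depth was nearly the same throughout. Levels are given as counts per 1000000 (CPM) after TMM scaling, and all 5 genes passed the filter on low counts that left 20074 genes for testing. A gene was called when its Benjamini-Hochberg adjusted p in edgeR's quasi-likelihood test was below 0.05 and its fold change was above 1.5. LBD41, a hypoxia-induced gene, had 1034, 1932 and 735 CPM in HF, 37.8, 155 and 52.7 CPM in NF, 751, 306 and 690 CPM in HM, and 21.6, 20.8 and 12.7 CPM in NM, and every hypoxic library lay above every normoxic one. WRKY33, an immune transcription factor gene, had 1364 to 1677 CPM in HF, 635 to 1735 CPM in NF and 26.3 to 60.0 CPM in NM. LBD41, WRKY33 and the hypoxia genes ADH1 and PDC1 were called in HF vs NM. None of the 6 treatment genes examined was called by edgeR in HM vs NM or in HF vs NF. In both comparisons LBD41, ADH1 and PDC1 nevertheless had every hypoxic sample above every normoxic one. In HM, replicate 1 stood apart: its WRKY33 was 647 CPM, against 60.8 and 165 CPM in HM replicates 2 and 3. FRK1 and AT2G17740, the other treatment genes examined, were not called, and FRK1, a flg22-responsive kinase gene, was low and uneven, with 2.20 to 17.7 CPM in HF, 2.33 to 65.5 CPM in NF, 0.351 to 46.4 CPM in HM and 0.415 to 38.3 CPM in NM. Summed pollen and seed markers, which seedlings should lack, stayed at or below 4.32 CPM in every library. Summed root markers were 55.2 to 61.8 CPM in HF, 59.8 to 94.8 CPM in NF, 60.6 to 86.4 CPM in HM and 77.1 to 103 CPM in NM, and summed guard cell and epidermis markers were 91.0 to 102 CPM in HF, 95.02 to 99.6 CPM in NF, 105 to 133 CPM in HM and 112 to 130 CPM in NM. Summed vascular markers were 186 to 203 CPM in HF, below the 214 to 226 CPM in NF and the 213 to 238 CPM in NM, and spread over 172 to 243 CPM in HM. No marker gene tested passed the threshold in any comparison, and the part of these shifts in the results was not tested.

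flg22 raised the 4 secretion genes, while the callose synthase PMR4 did not pass the test. In NF vs NM, 4 of the 5 genes were called, all higher in NF, where 7.07% of the 20074 tested genes were called in either direction and 6.43% were called higher. The 4 were the syntaxins PEN1 and SYP122, their partner SNAP33 and the transporter PEN3. Every NF sample lay above every NM sample for all 5 genes, PMR4 included, which was true of 12.3% of tested genes. The median log2 fold change of the 5 genes was 3.07, against -0.03 over all tested genes.

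**Figure D1:**
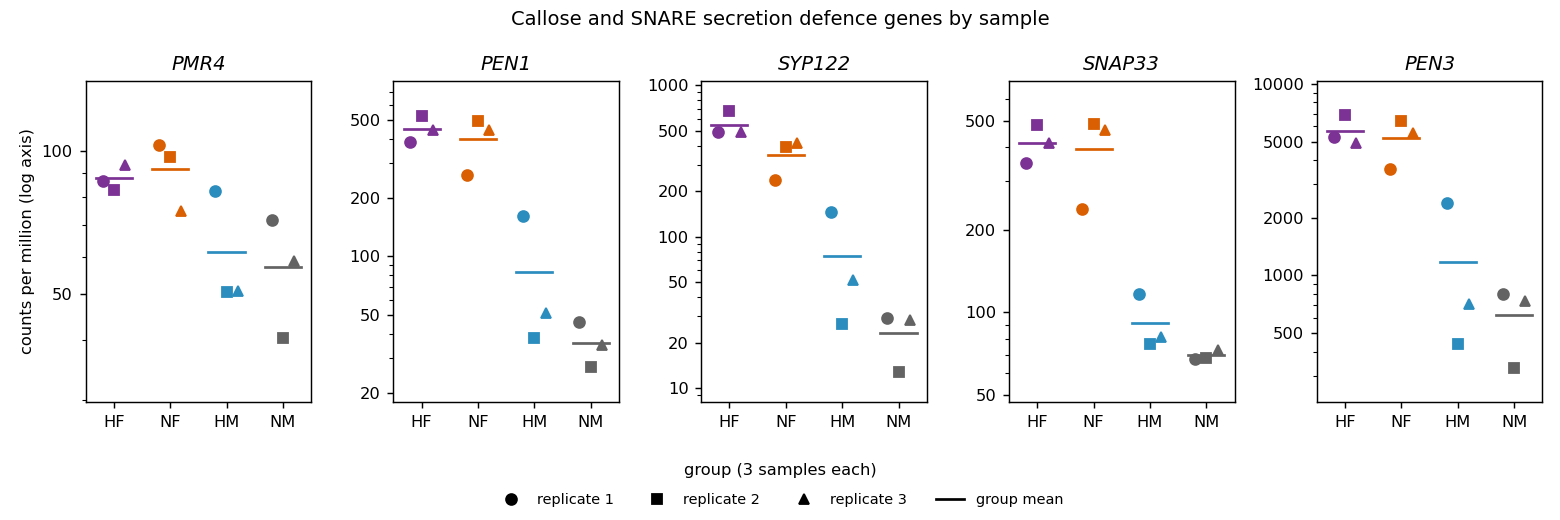
Each panel plots 1 gene in CPM on a log axis, with 3 samples per group as points shaped by replicate number and the group mean as a line. The flg22 groups HF and NF sit above NM in every panel, with the narrowest gap in PMR4, which was not called, and HM replicate 1 is the highest HM sample of all 5 genes.

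SYP122 changed most of the 5 in HF and NF. It had 489, 674 and 489 CPM in HF, 239, 392 and 418 CPM in NF, 147, 26.7 and 52.2 CPM in HM, and 29.2, 12.9 and 28.1 CPM in NM. The flg22 groups lay wholly above both mock groups, HF lay wholly above NF, and HM overlapped NM. Relative to NM, SYP122 was 15.0-fold higher in NF (log2 fold change 3.90, SE 0.60, adjusted p = 0.00316, edgeR) and 23.6-fold higher in HF (log2 fold change 4.56, SE 0.62, adjusted p = 0.00175, edgeR). Among all tested genes these changes ranked 291 and 230 from the top.

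PEN1 had 387, 526 and 443 CPM in HF, 262, 493 and 444 CPM in NF, 161, 38.2 and 51.4 CPM in HM, and 46.0, 27.0 and 35.1 CPM in NM. HF and NF overlapped each other and lay above both mock groups. The log2 fold change against NM was 3.65 in HF (SE 0.53, adjusted p = 0.00196, edgeR) and 3.47 in NF (SE 0.52, adjusted p = 0.00300, edgeR).

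SNAP33, which supplies the SNARE helices that join a syntaxin to the vesicle, had 350, 483 and 413 CPM in HF, 237, 486 and 462 CPM in NF, 117, 76.4 and 81.3 CPM in HM, and 67.5, 68.2 and 73.1 CPM in NM. It was the steadiest of the 5 genes in NM, with a coefficient of variation of 4.38%. Its log2 fold change against NM was 2.58 in HF (SE 0.29, adjusted p = 0.00162, edgeR) and 2.51 in NF (SE 0.29, adjusted p = 0.00216, edgeR). Its folds were smaller than those of the syntaxins, and its adjusted p values were the lowest of the 5 genes.

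PEN3 was by far the most abundant. It had 5300, 6839 and 4916 CPM in HF, 3591, 6417 and 5562 CPM in NF, 2378, 439 and 710 CPM in HM, and 796, 330 and 732 CPM in NM. By count it ranked between 4 and 5 of all genes in every HF and NF library, between 17 and 332 in HM and between 86 and 412 in NM. It took 0.478% to 0.566% of all counts in HF libraries, against 0.0331% to 0.0980% in NM libraries. Its log2 fold change against NM was 3.20 in HF (SE 0.61, adjusted p = 0.00669, edgeR) and 3.07 in NF (SE 0.61, adjusted p = 0.0102, edgeR). The NF vs NM call was lost without NM replicate 2, the lowest NM sample, at a log2 fold change of 2.76 and an adjusted p of 0.0516 in edgeR.

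PMR4 had 86.8, 83.1 and 93.7 CPM in HF, 103, 97.3 and 74.9 CPM in NF, 82.5, 50.5 and 50.8 CPM in HM, and 71.8, 40.4 and 58.8 CPM in NM. Its log2 fold change was 0.69 in NF vs NM (SE 0.25, adjusted p = 0.164, edgeR) and 0.62 in HF vs NM (SE 0.25, adjusted p = 0.162, edgeR), and neither was called. With a replicate block, a term for replicate number fitted over all 12 samples, PMR4 was called in NF vs NM at a log2 fold change of 0.71 (adjusted p = 0.0422, edgeR). It was then also called in HF vs NM, at 0.66 (adjusted p = 0.0421, edgeR). All genes called in NF vs NM rose in number to 2315 from 1419 without the block. The replicate block ended no call of the other 4 genes in NF vs NM.

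Per kilobase of transcript, PEN3 had the highest level and PMR4 the lowest in HF, NF and NM. In HF, PEN3 had 1153 ± 206 CPM per kb, SYP122 386 ± 75.0, SNAP33 273 ± 43.9, PEN1 272 ± 42.1 and PMR4 14.6 ± 0.891 (SD, n = 3 each). In NF, PEN3 had 1053 ± 294 CPM per kb, SNAP33 259 ± 90.0, SYP122 245 ± 68.0, PEN1 241 ± 73.3 and PMR4 15.2 ± 2.47 (SD, n = 3 each). In NM, PEN3 had 126 ± 51.2 CPM per kb, SNAP33 45.7 ± 2.00, PEN1 21.7 ± 5.74, SYP122 16.4 ± 6.38 and PMR4 9.44 ± 2.62 (SD, n = 3 each). Neighbours in these orders whose means lay within their SDs of each other were SYP122, SNAP33 and PEN1 in HF and in NF, and PEN1 and SYP122 as well as SYP122 and PMR4 in NM. The order of SNAP33 and PEN1 in HF, and of SYP122, SNAP33 and PEN1 in NF, is therefore not resolved. Within each HF library SYP122 was above SNAP33 and PEN1 per kilobase, although the SDs overlapped. In NM SNAP33 lay above both syntaxins by more than the SDs.

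Adding hypoxia to flg22 took none of the 5 genes past the threshold. In HF vs NM, the same 4 genes were called, all higher in HF, where 10.4% of tested genes were called and 7.85% were called higher, and all 5 genes had every HF sample above every NM sample, as had 14.8% of tested genes. In HF vs NF none of the 5 was called, and 0% of all tested genes were (992 at an unadjusted p below 0.05). DESeq2 called 110 genes in that comparison when fitted on all samples, and none of the 5 was among them. SYP122 had the largest difference, a log2 fold change of 0.66 with a 95% interval of -0.52 to 1.83 (adjusted p = 0.996, edgeR). It was the one gene of the 5 with every HF sample above every NF sample, as were 5.08% of tested genes. For PEN1 the HF vs NF log2 fold change was 0.18 (interval -0.87 to 1.22), for SNAP33 0.07 (interval -0.53 to 0.68), for PEN3 0.13 (interval -1.11 to 1.37) and for PMR4 -0.06 (interval -0.61 to 0.49). These intervals leave room for changes in either direction.

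**Figure D2:**
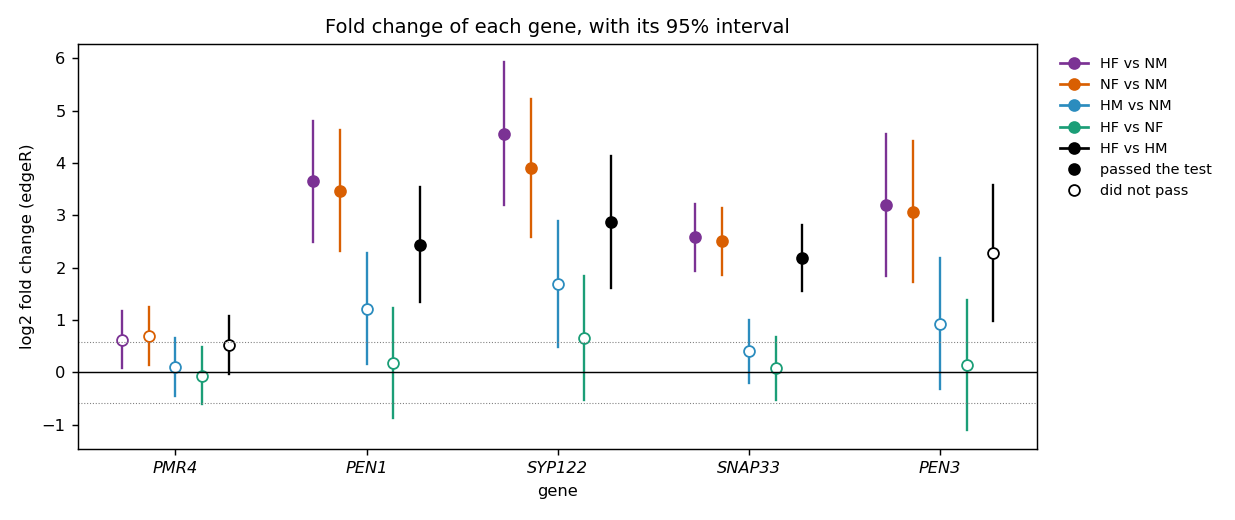
Points give each gene's log2 fold change in 5 comparisons with its 95% interval, filled where the gene passed the test, and dotted lines mark a 1.5-fold change. PEN1, SYP122, SNAP33 and PEN3 lie between 2.51 and 4.56 in HF vs NM and NF vs NM, and every HF vs NF interval spans 0.

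Hypoxia alone left the 5 genes uncalled. In HM vs NM 0% of all tested genes were called by edgeR (1191 at an unadjusted p below 0.05), and DESeq2, which called 166 genes when fitted on all samples, called none of the 5 either. SYP122 had a log2 fold change of 1.69 (interval 0.48 to 2.89, adjusted p = 0.611, edgeR) and PEN1 of 1.21 (interval 0.15 to 2.27, adjusted p = 0.762, edgeR). These values rested largely on HM replicate 1: without it SYP122 was at 0.76, PEN1 at 0.31 and PEN3 at -0.11, against 0.92 for PEN3 with it. Compared within the same replicate number, SYP122, PEN1 and SNAP33 were each higher in HM in all 3 pairs, and PEN3 and PMR4 were not. In replicates 1, 2 and 3 the folds were 5.03, 2.08 and 1.86 for SYP122. They were 3.49, 1.41 and 1.46 for PEN1 and 1.73, 1.12 and 1.11 for SNAP33. The share of all tested genes higher in all 3 pairs was not computed. SNAP33 was the one gene with every HM sample above every NM sample, as were 5.54% of tested genes, at a log2 fold change of 0.40 (interval -0.21 to 1.00, adjusted p = 0.962, edgeR).

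Set against hypoxia without flg22, the same direction held with less certainty. In HF vs HM, 3 of the 5 genes were called, all higher in HF, where 4.38% of tested genes were called and 3.84% were called higher. SNAP33 had a log2 fold change of 2.18 (SE 0.29, adjusted p = 0.00640, edgeR), SYP122 of 2.87 (SE 0.57, adjusted p = 0.0224, edgeR) and PEN1 of 2.44 (SE 0.50, adjusted p = 0.0236, edgeR). PEN3, at 2.27 (SE 0.59, adjusted p = 0.0570, edgeR), and PMR4, at 0.52 (SE 0.25, adjusted p = 0.328, edgeR), were not called. All 5 genes had every HF sample above every HM sample, as had 12.1% of tested genes, PMR4 by a narrow margin. Without HM replicate 1 the called genes were 4, with PEN3 at 3.31 and an adjusted p of 0.00273 in edgeR. Without HF replicate 2, HF replicate 3 or HM replicate 2 only SNAP33 was called, without HM replicate 3 none was, and the fit on HF and HM alone called 1.

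Whether flg22 acted differently under hypoxia was tested as an interaction, the flg22 change in hypoxia minus that in normoxia. None of the 5 genes was called, as was 0% of tested genes (227 at an unadjusted p below 0.05, and 0 with DESeq2). The interaction was -1.03 for both PEN1 (interval -2.51 to 0.45) and SYP122 (interval -2.70 to 0.64), -0.79 for PEN3, -0.32 for SNAP33 and -0.17 for PMR4, on the log2 scale and each with an adjusted p of 1.00 in edgeR. Without HM replicate 1, PEN1 was at -0.14, SYP122 at -0.10, PEN3 at 0.24, SNAP33 at -0.11 and PMR4 at 0.11.

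Because PEN1 and SYP122 are counted in the same library, their ratio does not depend on scaling between libraries. SYP122 had 1.26, 1.28 and 1.10 counts per PEN1 count in HF, 0.909, 0.794 and 0.943 in NF, 0.912, 0.700 and 1.02 in HM, and 0.634, 0.476 and 0.799 in NM. HF was the group in which every sample had more SYP122 than PEN1 counts, and its values lay above those of each other group. The mean log2 ratio was 0.28 ± 0.12 in HF, -0.19 ± 0.13 in NF, -0.21 ± 0.28 in HM and -0.68 ± 0.37 in NM (SD, n = 3 each). HF exceeded NM by 0.97, NF by 0.47 and HM by 0.49 on the log2 scale, each at p = 0.1 in a two-sided exact permutation test (0.167 adjusted over 5 comparisons), the smallest p that 3 against 3 allows. The 2 counts are not matched for transcript length, so the ratio compares groups and not the 2 genes.

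PEN3 also parted from its closest relative. PEN3 had 120, 140 and 90.6 counts per ABCG35 count in HF, 51.4, 220 and 155 in NF, 44.9, 13.3 and 20.9 in HM, and 11.1, 15.5 and 24.2 in NM. The flg22 groups lay above NM without overlap, while HM overlapped NM. The log2 ratio was higher by 2.84 in HF vs NM and by 2.91 in NF vs NM (p = 0.1 each, two-sided exact permutation test, 0.167 adjusted over 5 comparisons). ABCG35 itself, an ABC transporter with 44.0 to 54.3 CPM in HF, 29.2 to 69.8 CPM in NF and 21.2 to 71.8 CPM in NM, had a log2 fold change of 0.26 in HF vs NM (adjusted p = 0.846, edgeR), whose sign turned to -0.08 with scaling by library size alone. Reads that fit both genes may have been shared between them, since how such reads were counted is not given in the sources used here.

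**Figure D3:**
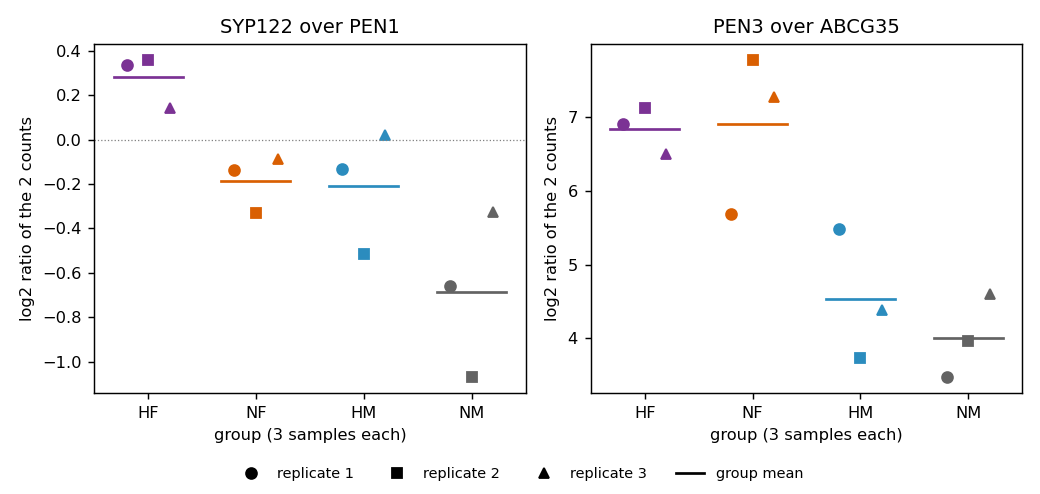
The log2 ratio of counts is plotted for SYP122 over PEN1 and for PEN3 over ABCG35, with 3 samples per group as points shaped by replicate number and the group mean as a line. In the left panel all HF points lie above 0, and in the right panel HF and NF points lie above every NM point.

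Among the other callose genes, 1 passed the test. Of 12 callose synthases, PMR4 included, none was called in NF vs NM and GSL1, the nearest relative of PMR4, fell in HF vs NM, where 2.59% of tested genes were called lower, at 13.4, 18.8 and 13.1 CPM in HF against 23.7, 35.4 and 26.1 CPM in NM (log2 fold change -0.91, adjusted p = 0.0334, edgeR). This call was lost in 7 of the 12 fits that left out a sample. GSL1 had 20.3, 16.9 and 16.5 CPM in NF, also wholly below NM, and HF overlapped NF. GSL6 and GSL12 had log2 fold changes of -0.10 and -0.37 in HF vs NM and were not called. The list's median log2 fold change was 0.02 in HF vs NM and 0.16 in NF vs NM. Of the 6 tested genes for callose turnover and plasmodesmata, none was called in either comparison. BG3, a beta-1,3-glucanase gene at the edge of detection, was singled out after its values were seen. It had 0.499, 0.113 and 1.01 CPM in HF, 3.41, 1.08 and 1.62 CPM in NF, 1.16, 0.201 and 0.225 CPM in HM, and 0.377, 0 and 0.431 CPM in NM. NF lay wholly above both HF and NM, at a log2 fold change of 2.88 in NF vs NM (adjusted p = 0.173, edgeR), the largest of these 6 genes. With the replicate block over all 12 samples it was called in NF vs NM, at 3.08 (adjusted p = 0.0279, edgeR).

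Among the syntaxins of the plasma membrane, PEN1 and SYP122 were the 2 of 6 tested that were called in HF vs NM and in NF vs NM. SYP132, which acts in basal secretion, had 33.9, 37.9 and 27.9 CPM in HF against 30.7, 38.7 and 29.5 CPM in NM, a log2 fold change of 0.01 (adjusted p = 0.985, edgeR) that was -0.27 with scaling by library size alone. SYP123, a syntaxin of root hairs, stayed at or below 1.77 CPM in every library. Of 12 tested partner SNAREs and SM proteins, 4 rose in HF vs NM and 3 in NF vs NM, where 7.85% and 6.43% of all tested genes were called higher. SNAP33 was 1 of them in each, so that 3 and 2 were other genes. VAMP723 had 18.4, 24.7 and 24.9 CPM in HF, 8.39, 16.7 and 23.2 CPM in NF and 2.23, 2.60 and 4.31 CPM in NM, with a log2 fold change of 2.89 in HF (adjusted p = 0.00175, edgeR) and 2.40 in NF (adjusted p = 0.00363, edgeR). KEU (KEULE), the Sec1/Munc18 protein that assists SNARE assembly, rose by 1.59 in HF vs NM and 1.20 in NF vs NM on the log2 scale (adjusted p = 0.00412 and 0.0206, edgeR), the NF call being lost in 5 of 12 fits that left out a sample. VAMP722, a vesicle partner of PEN1, rose in HF vs NM by 0.83 on the log2 scale (adjusted p = 0.0217, edgeR), a call lost in 4 of those 12 fits and with scaling by library size alone (0.55, adjusted p = 0.0578), and had 0.61 in NF vs NM (adjusted p = 0.110, edgeR). VAMP722 and VAMP723 are neighbouring and similar genes, so their counts may include shared reads. SNAP29, the tested relative of SNAP33, stayed at or below 0.720 CPM in every library.

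Of 20 other endomembrane SNAREs tested, 2 rose in both HF vs NM and NF vs NM, a share near the 7.85% and 6.43% of all tested genes called higher there. SYP42, a syntaxin of the trans-Golgi network, had 12.6, 20.9 and 16.5 CPM in HF, 10.7, 17.2 and 17.5 CPM in NF, and 5.02, 4.55 and 3.62 CPM in NM, with a log2 fold change of 1.92 in HF (adjusted p = 0.00201, edgeR). SYP21, a syntaxin of the prevacuolar compartment, rose by 1.15 in HF vs NM (adjusted p = 0.00783, edgeR), and its 0.85 in NF vs NM was called in 2 of 12 fits that left out a sample. The log2 fold changes of this list ran from -0.41 to 1.92 in HF vs NM, with a median of 0.08, against -0.05 over all tested genes.

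The exocyst tethers secretory vesicles at the plasma membrane before SNAREs fuse them. Of 21 tested exocyst genes, 6 rose in HF vs NM and 8 in NF vs NM, where 7.85% and 6.43% of all tested genes were called higher, and none fell. EXO70B2, an EXO70 subunit with a role in immunity, had 233, 503 and 299 CPM in HF, 114, 341 and 305 CPM in NF, and 17.2, 9.34 and 16.0 CPM in NM. Its log2 fold change was 4.60 in HF and 4.16 in NF, close in size to that of SYP122. EXO70B1 rose by 2.38 in HF and 2.17 in NF, EXO70H7 by 3.55 and 3.92, and SEC15B by 0.89 and 0.80 on the log2 scale. SEC15B's NF call was lost in 3 of 12 fits that left out a sample.

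Of 15 full-size ABCG transporters, PEN3 and 3 others rose in both HF vs NM and NF vs NM, where 7.85% and 6.43% of all tested genes were called higher. ABCG40, a transporter of abscisic acid, had 41.0, 62.3 and 60.0 CPM in HF, 59.2, 91.0 and 46.9 CPM in NF, 30.3, 0.151 and 0.675 CPM in HM, and 0.226, 0.418 and 0.431 CPM in NM. HM replicate 1 again stood with the flg22 groups and apart from the rest of HM. Its log2 fold change was 7.24 in HF vs NM (adjusted p = 0.0134, edgeR) and 7.51 in NF vs NM (adjusted p = 0.0147, edgeR). Both calls were lost without any 1 of the 3 NM replicates, at adjusted p values between 0.0512 and 0.0605 in HF vs NM and between 0.0580 and 0.0703 in NF vs NM. ABCG42 and ABCG43 rose by 2.55 and 3.81 in HF vs NM on the log2 scale, and ABCG37, with -0.08, was not called. Of 9 other penetration resistance genes, 5 rose in HF vs NM and in NF vs NM, against the same shares of all tested genes, and none was called in HM vs NM. PEN2, the myrosinase that works with PEN3 in indole glucosinolate defence, rose by 3.07 in HF vs NM and 2.88 in NF vs NM, and PCS1, phytochelatin synthase, by 4.48 and 4.31. RBOHD, the oxidase of the immune oxidative burst, rose by 4.68 and 3.89, its NF call being lost without NM replicate 2 (adjusted p = 0.0721) or NM replicate 3 (adjusted p = 0.0620), and PUB23, a ubiquitin ligase that limits immune responses, rose by 5.13 and 4.98.

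**Figure D4:**
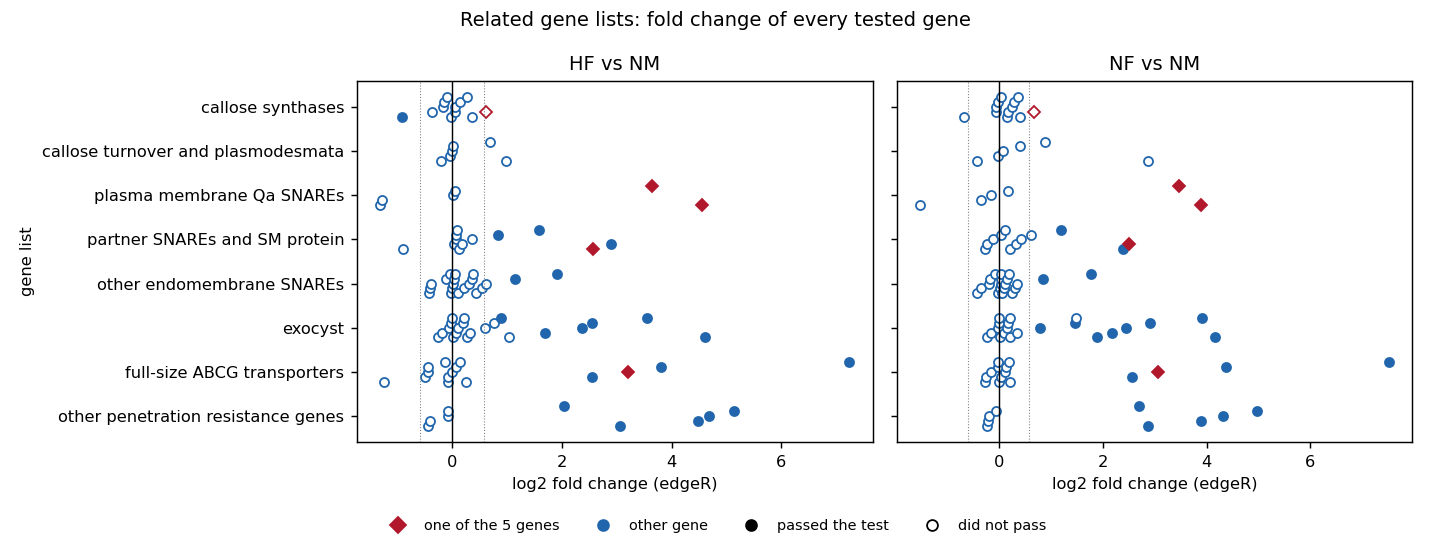
Each point is 1 tested gene's log2 fold change against NM, by gene list, with diamonds for the 5 genes and filled symbols where the gene passed the test. Callose synthases lie between -0.91 and 0.69, while exocyst, ABCG and other penetration resistance genes have members beyond 2 in both panels.

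Over the 12 libraries, the 4 genes that rose followed each other closely, but many other genes followed them more closely. By r with PEN1 among all tested genes, SYP122 ranked 40, PEN3 43 and SNAP33 245. As a description across samples that share libraries and treatments, log2 CPM of PEN1 had a Pearson r of 0.99 with both SYP122 and PEN3 and of 0.97 with SNAP33, while PMR4 had 0.86 with PEN1 and 0.76 with SNAP33. The genes most like PEN3 among 20073 others were AT1G55450, with a Pearson r of 0.999, CRK10 and CAD1 (AT5G44070). For SYP122 they were AT4G34150 (0.995), CMPG2 and AT2G20562. For PEN1 they were AT5G01830 (0.997, listed under the symbol SAUR21), MUB4 and ATR2, and for SNAP33 CNBT1 (0.996), AT3G28850 and AT1G03370. PMR4 was matched best by MTO3 (0.970), GSTF10 and NAD-ME2. The 12 points fall into 4 groups of 3 and are not independent of the treatments.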

How the data were processed

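Messenger RNA of 12 whole-seedling samples, described as biological replicates, was sequenced as paired reads. The deposited expected counts per gene were made by the authors, who mapped filtered reads with HISAT. The submitters' processing notes name the build TAIR10 and DESeq2. Deposited group means and the authors' own fold changes were not used. The counting tool and its use of strand are not given in the sources used here. Of the count values 2.30% were not whole and were rounded. Groups came from the treatment labels. edgeR 4.0.16 (glmQLFit and glmQLFTest in R 4.3.3, TMM, filterByExpr with a minimum count of 10, all 12 samples in 1 fit) gave the adjusted p values, over all tested genes. The 5 genes and every list were chosen with earlier results of these data known. Named from each list were at most 4 called genes of HF vs NM or NF vs NM, those with the smallest adjusted p in HF vs NM, plus relatives of the 5 genes, and for likeness the 3 genes with the highest r of log2 CPM.

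Same-numbered samples deviated together from their group means in HM and NM (r of at least 0.26 in every pair, mean 0.51) and in NF and NM (at least 0.31, mean 0.53), but not in every pair with HF (lowest -0.11). Alternatives were DESeq2 1.42.0, other fits, scalings and filters, no fold cutoff, the replicate block, and leaving out each sample. On counts simulated for NF vs NM (20074 genes, 200 changed, a common spread for all genes), edgeR recovered 81.5% of changes of 2 on the log2 scale and 0.5% of changes of 1. Promoters and proteins were read from the RefSeq TAIR10.1 genome and annotation, matched by locus for all 5 genes, and proteins were aligned end to end. The deposited table holds no coordinates.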

Additional observations from a re-analysis of the deposited data

How the results depend on the processing

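PEN1, SYP122, SNAP33 and PEN3 stayed higher in HF and NF than in NM under every alternative, and their calls held in all of them except for PEN3 in NF vs NM without NM replicate 2. No other count of the 5 genes moved by over 1.5 times except in HF vs HM, where edgeR on those groups alone called 1, and leaving out a sample gave 0 to 4. With the replicate block, the genes called among all tested were 13 in HM vs NM, 2315 in NF vs NM, 3362 in HF vs NM, 21 in HF vs NF and 1915 in HF vs HM. The block also took PMR4 in HF vs NM (0.66, adjusted p = 0.0421, edgeR) and PEN3 in HF vs HM (2.49, adjusted p = 0.0284, edgeR) past the threshold. In these comparisons same-numbered samples deviated together in replicates 1 and 2. Their r was 0.52 and 0.58 for HF with NM, and 0.46 and 0.42 for HF with HM. In replicate 3 it was -0.009 and -0.05. The block changed no other call of the 5 genes besides PMR4 in NF vs NM. DESeq2 called 166 genes in HM vs NM, 110 in HF vs NF and 1694 in HF vs HM when fitted on all samples, and 151, 144 and 1422 when fitted on the groups compared. It also called PEN3 in HF vs HM. edgeR on those groups alone called 290 in HF vs HM, and 10 counts in every sample left 2 calls in HF vs NF. Leaving out a sample gave 0 to 55 called genes in HM vs NM, 859 to 1570 in NF vs NM, 1367 to 2199 in HF vs NM, 0 to 10 in HF vs NF and 35 to 1532 in HF vs HM.

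With TMM the median log2 fold change of all genes was -0.05 in HF vs NM, -0.03 in NF vs NM and 0.01 in HM vs NM. Scaling by library size alone put these medians at -0.32, -0.17 and -0.11. It gave 1289 higher genes of 2788 called in HF vs NM (1576 of 2095 with TMM), 1101 of 1465 in NF vs NM (1291 of 1419 with TMM) and 537 of 882 in HF vs HM (770 of 879 with TMM). With that scaling PMR4 was at -0.029 in HM vs NM, SNAP33 at -0.023 in HF vs NF, SYP132 at -0.27 and ABCG35 at -0.085 in HF vs NM. None of these was called under either scaling. Signs of small, uncalled values turned when a sample was left out, and the cause was not tested. These were in HM vs NM PMR4 (-0.17 to 0.30) and PEN3 (-0.11 to 1.32), in HF vs NF PMR4 (-0.19 to 0.030), PEN1 (-0.053 to 0.36), SNAP33 (-0.19 to 0.25), PEN3 (-0.075 to 0.31) and the log2 ratio of PEN3 to ABCG35 (-0.68 to 0.37), in the interaction PMR4 (-0.37 to 0.11) and PEN3 (-1.19 to 0.24), and in HF vs NM GSL6 (-0.21 to 0.012), SYP132 (-0.092 to 0.14), ABCG35 (-0.054 to 0.93) and ABCG37 (-0.29 to 0.18). In the simulation, with 3 samples a group and a common spread for all genes, few changes of 2-fold were called. Some measured changes of about that size were called, such as those of SEC15B and VAMP722 in HF vs NM.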
